A study of Mus musculus with 12 samples.

Results

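The response of gonadal white adipose tissue (WAT) to corticosterone (CORT, the main glucocorticoid of rodents) was examined in mice whose glucocorticoid receptor gene was floxed but intact. Of the 12 libraries of the study, 2 make this comparison, gonadal WAT of GRf/f mice given vehicle and gonadal WAT of GRf/f mice given CORT. The mice were male and of the C57BL/6J strain. From 8 weeks of age they drank water containing 1% ethanol, either alone (vehicle) or with CORT at 100 µg/mL, for 4 weeks. GRf/f means that both *Nr3c1* alleles, which encode the glucocorticoid receptor, carry loxP sites around an exon and that no Cre is present, so both compared groups share the floxed alleles and have a receptor in every tissue. The corresponding 2 libraries of GRmKO mice are given beside them. These mice carry the same floxed alleles and a Cre transgene under the skeletal muscle actin promoter, which acts in muscle fibres, so their fat also retains the receptor. Each library was made from RNA pooled from 3 mice, and each group has 1 library.

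With 1 library per group no spread between mice could be measured, no test was possible and no p-value, SD or standard error is given. A gene was called higher or lower when its level changed at least 2-fold. Levels are CPM, expected counts scaled to a library total of 1000000. Changes are log2 ratios computed with 0.5 CPM added to either level, which understates the change of genes with few counts. All changes are CORT against vehicle. Genes above 0 in all 4 gonadal WAT libraries were compared, which were 14218 of 22252.

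White adipocytes store fatty acids as triglyceride and release them by lipolysis, and the balance is set by insulin, catecholamines and glucocorticoids. Glucocorticoids enter cells, bind the receptor and change transcription directly, and in adipose tissue they are known both to promote adipocyte differentiation and fat storage and to raise lipolysis, and to restrain many inflammatory genes. The tissue around the adipocytes holds fibroblastic progenitors, capillaries with their pericytes, macrophages, and smaller numbers of dendritic cells, lymphocytes and mast cells, so a bulk profile sums all of them. A lower transcript level in such a profile can come from fewer cells of a type or from less RNA per cell, and these cannot be told apart here.

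The libraries held 19752511 to 20198110 expected counts, and between 15802 and 16438 genes were above 0. The floor, taken as 3 counts, was 0.149 to 0.152 CPM. The adipocyte identity list was present throughout, with none of its 24 members at 0 in any library. Markers of the neighbouring epididymis were nearly absent. Of the 27 listed, 16 were at 0 with vehicle and 21 with CORT, the summed level was 6.06 and 2.92 CPM, and the defining *Crisp1*, *Lcn5* and *Lcn9* were at 0 in both libraries. Of the 4 compared, *Spink2* was called lower, at 2.3 and 0.852 CPM. The red blood cell list summed to 4377 CPM with vehicle and 2156 CPM with CORT in GRf/f mice, and to 4444 and 5676 CPM in GRmKO mice, so that 5 of its 7 genes, among them *Hba-a1*, *Hba-a2*, *Hbb-bs* and *Slc4a1*, were called lower in GRf/f mice and none in either direction in GRmKO mice. The list median of -1.01 lay at the threshold and was -0.94 after TMM scaling, which is no longer past it. The 5 lower calls became 1 with TMM or median-of-ratios factors, 3 with 1 CPM added and 6 without the 50 most abundant genes. The part of this in the lower levels of vascular and lymphocyte genes below was not tested. *Acta1*, the actin of skeletal muscle fibres, stood at 37.4 and 113 CPM in GRf/f mice and at 199 and 103 CPM in GRmKO mice. *Ckm* and *Myh1*, other genes of these fibres, were below 1 CPM in both GRf/f libraries, and *Atp2a1*, their calcium pump, was the other called gene of the 9 compared, at 3.01 and 0.857 CPM. Of the 7 nerve genes only *Prx*, of myelin, was called, at 2.1 and 0.795 CPM, and the single compared gene of mammary, pancreatic or testis tissue, *Cela1*, stood at 14.4 and 34.4 CPM.

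The hormone receptors and the enzymes that handle their ligand were examined first, as a list of 14 genes of which 2 were called higher and 0 lower. *Nr3c1* stood at 155 CPM with vehicle and 136 CPM with CORT (log2 change -0.19), and *Nr3c2*, which encodes the mineralocorticoid receptor, at 7.04 CPM with vehicle and 5.96 CPM with CORT (log2 change -0.22). Neither was called. *Hsd11b1*, which encodes the enzyme that regenerates active corticosterone inside the cell, stood at 61.4 CPM with vehicle and 162 CPM with CORT (log2 change 1.39), and at 57.5 and 158 CPM (log2 change 1.45) in GRmKO mice. *Hsd11b2*, which encodes the enzyme that inactivates the hormone, stood at 0.952 and 0.954 CPM in GRf/f mice. *Fkbp5*, a co-chaperone of the receptor and a classic target of it, stood at 141 CPM with vehicle and 427 CPM with CORT (log2 change 1.60). In GRmKO mice the same gene stood at 206 and 264 CPM (log2 change 0.36). *Hsd11b1* was thus called higher in both genotypes, and *Fkbp5* in GRf/f mice only by the 2-fold threshold, a difference between genotypes that was not tested.

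Over all genes compared, 781 were called higher with CORT in GRf/f mice, which is 5.49%, and 1147 were called lower, which is 8.07%. These shares are the background for the GRf/f counts of each list. The median log2 change of all genes was -0.07, and the central 50% lay between -0.46 and 0.31. Changes of at least 4-fold were present in 143 higher and 182 lower genes. In GRmKO mice 494 genes (3.47%) were called higher and 800 (5.63%) lower, around a median of -0.12. Both genotypes called 288 genes higher, which is 36.9% of the GRf/f calls and 58.3% of the GRmKO calls, and 445 genes lower, which is 38.8% and 55.6%. Opposite calls were given to 22 genes. The genotypes share no control library, and the log2 changes of the 2 genotypes correlated across the 14218 genes with a Pearson r of 0.65, as a description, since genes are not independent replicates.

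**Figure D1:**
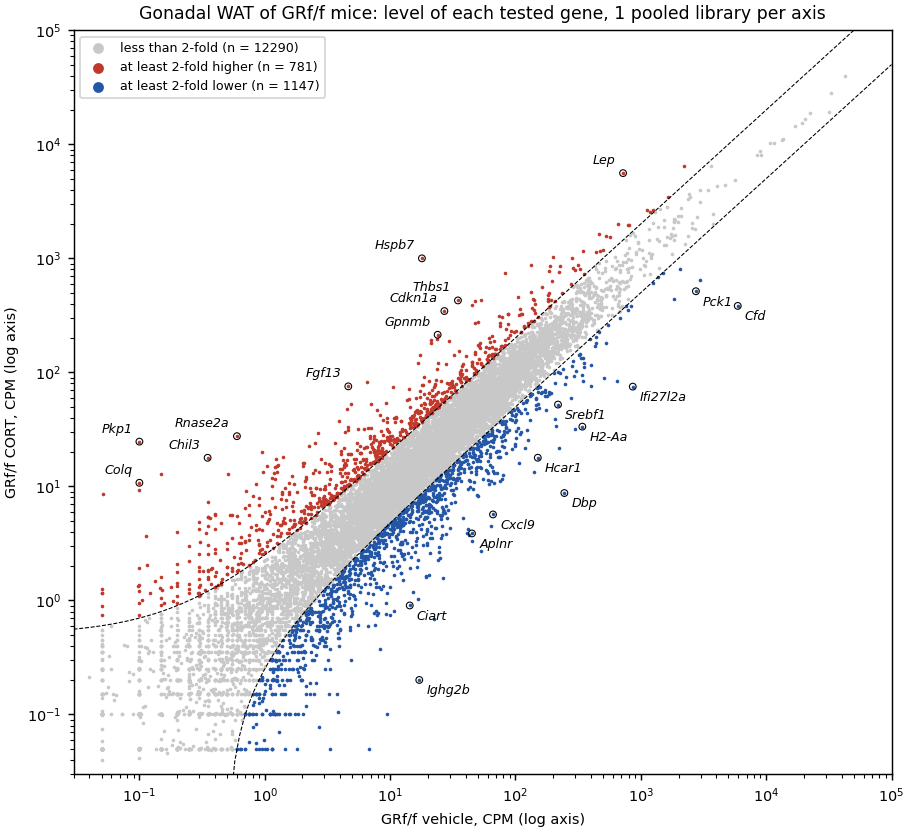
Level of each of the 14218 compared genes in gonadal WAT of GRf/f mice given vehicle (horizontal log axis, CPM) and CORT (vertical log axis, CPM), 1 pooled library per axis, with dashed lines at a 2-fold change after 0.5 CPM was added. The 781 genes above the upper line include *Lep* and *Hspb7*, and the 1147 below the lower line include *Cfd*, *Dbp* and *H2-Aa*.

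Among genes with at least 10 CPM in one of the 2 libraries, 518 were called higher and 595 lower. With 0.5 CPM added, the largest change was that of *Hspb7* (chromosome 4, 141420779 to 141425311 on GRCm38), a small heat shock protein known from heart and skeletal muscle, at 18 CPM with vehicle and 999.9 CPM with CORT (log2 change 5.76). Its ratio had a 95% counting interval of 5.65 to 5.96 on the log2 scale, and in GRmKO mice it stood at 60.4 and 758 CPM (log2 change 3.64). *Pkp1* (chromosome 1, 135871395 to 135919207), which encodes a plaque protein of desmosomes, had 2 counts with vehicle, 0.10 CPM, and 24.7 CPM with CORT. Its ratio had a counting interval of 6.09 to 11.00 on the log2 scale, above that of *Hspb7*, and with 0.1 CPM added its log2 change was 6.95 against 5.79 for *Hspb7*. *Colq*, the collagen tail that anchors acetylcholinesterase, likewise had 2 counts with vehicle and stood at 10.8 CPM with CORT, with an interval of 4.87 to 9.80. Both genes moved the same way in GRmKO mice, with log2 changes of 3.83 and 3.74.

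*Rnase2a*, a secreted ribonuclease of myeloid cells, stood at 0.601 CPM with vehicle and 27.6 CPM with CORT (log2 change 4.67). *Chil3*, a chitinase-like protein secreted by macrophages, stood at 0.351 CPM with vehicle and 17.8 CPM with CORT (log2 change 4.43). *Cdkn1a* (chromosome 17, 29090976 to 29100727), which encodes the cell cycle inhibitor p21 and is a known glucocorticoid target, stood at 27.1 CPM with vehicle and 345 CPM with CORT (log2 change 3.64). All of these were also called higher in GRmKO mice, with log2 changes of 4.25, 4.50 and 3.11. *Fgf13*, an intracellular member of the fibroblast growth factor family that binds sodium channels, stood at 4.65 CPM with vehicle and 75.4 CPM with CORT (log2 change 3.88). *Map1a* and *Map7d2*, which encode proteins that bind microtubules, had log2 changes of 3.55 and 3.38. *Slc5a7*, the high-affinity choline transporter, stood at 0.952 CPM with vehicle and 20.1 CPM with CORT (log2 change 3.83), *Osgin1*, an oxidative stress response gene, at 4.86 and 53 CPM, and *Aadacl2fm1*, a gene of the arylacetamide deacetylase-like family, at 0.15 CPM, which is 3 counts, and 12.8 CPM, with a counting interval of 4.85 to 8.71 on the log2 scale. *Ttll5*, a tubulin glutamylase, stood at 0.506 and 12.7 CPM but at 9.16 and 7.65 CPM in GRmKO mice. Its row carries 1 of 11 annotated coding transcripts, so a shift between transcripts could not be told apart from a change of the gene.

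Among the 15 largest decreases in genes of at least 10 CPM were those of *Dbp* and *Cfd*. *Dbp* (chromosome 7, 45705088 to 45710203), a transcription factor driven by the circadian clock, stood at 246 CPM with vehicle and 8.75 CPM with CORT (log2 change -4.73), and at 195 and 8.4 CPM (log2 change -4.45) in GRmKO mice. *Cfd* (chromosome 10, 79890853 to 79892655), which encodes adipsin, the complement factor D secreted by adipocytes, stood at 5933 CPM with vehicle and 383 CPM with CORT (log2 change -3.95), and at 5552 and 620.1 CPM (log2 change -3.16) in GRmKO mice. *Ifi27l2a*, an interferon-induced mitochondrial protein, stood at 863 CPM with vehicle and 75 CPM with CORT (log2 change -3.52). *Mycl*, a member of the Myc family expressed in dendritic cells, stood at 52.8 CPM with vehicle and 2.73 CPM with CORT (log2 change -4.04), *Pla2g2d*, a secreted phospholipase of dendritic cells and macrophages, at 16.8 and 1.04 CPM, and *H2-Q6*, a class I histocompatibility gene with near-identical neighbours, at 45.4 and 3.32 CPM. These genes were called lower in GRmKO mice as well. *Depp1*, a target of FOXO factors, stood at 141 CPM with vehicle and 13.4 CPM with CORT (log2 change -3.34). *Rnf146* and *Tti1* were lower in the GRf/f pair with log2 changes of -4.28 and -3.70, beside 0.56 and -1.16 in GRmKO mice. Their rows carry 1 of 6 and 1 of 3 coding transcripts, with the same limit as for *Ttll5*.

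Promoters of some list genes were searched for known motifs, and 6 of these promoters are shown. In their lists, 22 of 29 interferon-stimulated genes, 10 of 11 class II genes and 9 of 20 clock genes were called lower. The share of lower calls over all genes was 8.07%, and 4 of the clock genes were called higher. Each stretch is the 150 bases before the start of the gene from RefSeq on GRCm38.p6, written 5′ to 3′ along the gene, with the motif in capitals. Interferon-stimulated genes are known to be driven through a response element, searched here as GAAA, any 2 bases and GAAA again on both strands, so that it can also read TTTC, any 2 bases and TTTC, which *Ifit1* (chr19:34640739-34640888, plus strand), *Ifit3* (chr19:34583379-34583528, plus strand) and *Rsad2* (chr12:26456453-26456602, minus strand) contain.
Ifit1: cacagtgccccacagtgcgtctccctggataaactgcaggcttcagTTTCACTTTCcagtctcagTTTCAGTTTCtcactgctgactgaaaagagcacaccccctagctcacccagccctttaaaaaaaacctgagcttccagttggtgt
Ifit3: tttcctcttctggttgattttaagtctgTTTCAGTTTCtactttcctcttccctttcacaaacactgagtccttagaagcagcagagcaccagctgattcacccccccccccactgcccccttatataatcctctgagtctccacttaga
Rsad2: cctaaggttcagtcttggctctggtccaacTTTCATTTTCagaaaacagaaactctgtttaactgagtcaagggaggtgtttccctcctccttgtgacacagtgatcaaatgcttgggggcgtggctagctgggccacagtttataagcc
Within 250 bases before the start, this motif was in 13 of 21 interferon-stimulated genes compared that have a promoter in the table (61.9%), against 3.27% of the 11128 compared genes with a promoter. Class II histocompatibility promoters are known for a Y box bound by the factor NF-Y, searched as CTGATTGG on both strands, which *H2-Aa* (chr17:34287824-34287973, minus strand) and *H2-Eb1* (chr17:34305717-34305866, plus strand) contain.
H2-Aa: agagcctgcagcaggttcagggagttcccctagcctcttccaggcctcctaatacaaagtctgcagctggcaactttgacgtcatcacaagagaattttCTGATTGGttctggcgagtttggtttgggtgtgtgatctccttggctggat
H2-Eb1: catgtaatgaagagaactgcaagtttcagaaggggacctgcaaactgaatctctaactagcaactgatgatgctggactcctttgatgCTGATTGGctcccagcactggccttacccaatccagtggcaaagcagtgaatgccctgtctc
It was in 3 of 8 genes of the MHC class II list, against 6.03% of compared genes. Clock output genes are driven through E-boxes, searched as CACGTG, a palindrome, of which *Ciart* (chr3:95882229-95882378, minus strand) has 3.
Ciart: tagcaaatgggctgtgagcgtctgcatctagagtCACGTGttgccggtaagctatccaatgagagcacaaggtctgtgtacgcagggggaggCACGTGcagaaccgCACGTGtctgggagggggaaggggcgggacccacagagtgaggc
The E-box was in 5 of 17 clock genes, against 9.41% of compared genes. These shares count list members whether or not they were called, so they do not relate a motif to a decrease. A match describes the letters in the window and shows no binding, and no 2 matches overlap in the stretches shown.

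The adipocyte genes were considered next. Of 24 genes of adipocyte identity, 1 was called higher and 3 lower, with a median log2 change of -0.29, beside -0.07 over all genes. The shares in the background were 5.49% higher and 8.07% lower. *Pparg*, the master regulator of adipocytes, stood at 139.6 CPM with vehicle and 139 CPM with CORT (log2 change -0.01), and *Cebpa*, its partner, at 1111 CPM with vehicle and 946 CPM with CORT (log2 change -0.23). *Plin1*, the coat protein of the lipid droplet, stood at 2402 CPM with vehicle and 1559 CPM with CORT (log2 change -0.62), and *Adipoq*, which encodes adiponectin, at 3792 CPM with vehicle and 2016 CPM with CORT (log2 change -0.91). None of these 4 reached the threshold. Those called were *Lep* upward and *Cfd*, *Adrb3* and *Pck1* downward.

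Leptin and adipsin were the adipokines of largest change. *Lep*, which encodes leptin, the hormone that reports fat stores to the brain, stood at 722 CPM with vehicle and 5587 CPM with CORT (log2 change 2.95), a 7.73-fold difference. In GRmKO mice it stood at 1289.5 and 3196 CPM (log2 change 1.31), from a vehicle level above that of GRf/f mice. *Retn*, which encodes resistin, stood at 1521 CPM with vehicle and 1317 CPM with CORT (log2 change -0.21) and was not called. Among 23 adipokines 4 were called higher and 6 lower, with a median of -0.33. *Lcn2*, a lipocalin of the acute-phase response, was among the higher at 11.1 and 39.9 CPM. *Agt*, which encodes angiotensinogen, and *Metrnl*, which encodes meteorin-like, were the remaining higher ones, with log2 changes of 1.40 and 1.22. *Nnat*, which encodes neuronatin, stood at 1855 CPM with vehicle and 439.8 CPM with CORT (log2 change -2.08). *Nrg4*, a growth factor made by adipocytes that acts on the liver, stood at 98.5 CPM with vehicle and 22.7 CPM with CORT (log2 change -2.09). *Igf1*, which encodes an insulin-like growth factor, stood at 249.7 and 79.6 CPM. *Nnat* and *Nrg4* were called lower in GRmKO mice too, with log2 changes of -1.83 and -2.42, while *Igf1* had -0.86 there and was not called.

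Among the transcription factors of adipogenesis, 1 of 23 was called higher and 7 lower, with a median of -0.37. The higher one was *Egr2*, an early factor, at 2.46 and 6.63 CPM. *Srebf1*, the regulator of lipogenic genes that responds to insulin, stood at 219 CPM with vehicle and 52.2 CPM with CORT (log2 change -2.06). *Cebpd*, an early factor that glucocorticoids are known to induce in preadipocytes, stood at 74.3 CPM with vehicle and 20.4 CPM with CORT (log2 change -1.84), while *Cebpb* stood at 83.1 and 78.8 CPM. *Gata2* and *Gata3*, which hold progenitors back from differentiation, stood at 11.8 and 2.02 CPM and at 1.45 and 0.10 CPM. *Klf2* had a log2 change of -1.30, *Stat5a* of -1.26 and *Zfp467* of -1.28. Both repressors and promoters of adipogenesis were therefore among the 7.

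The genes of fatty acid synthesis had a median above that of all genes. Of 22 compared, 4 were called higher, and *Srebf1*, which is in this list too, was the one called lower. The median was 0.21 (0.49 in GRmKO mice). *Scd2*, a stearoyl-CoA desaturase, stood at 221 CPM with vehicle and 762 CPM with CORT (log2 change 1.78). *G6pdx*, the enzyme that supplies NADPH for synthesis, stood at 326 CPM with vehicle and 799.6 CPM with CORT (log2 change 1.29). *Thrsp* and *Mid1ip1*, a pair of related proteins that activate lipogenesis and acetyl-CoA carboxylase, stood at 1119 and 2659 CPM and at 33.1 and 70.7 CPM. *Fasn*, the fatty acid synthase, stood at 3627 CPM with vehicle and 6469 CPM with CORT (log2 change 0.83) and was not called. *Acaca* and *Acacb*, the acetyl-CoA carboxylases, and *Acly*, which makes cytosolic acetyl-CoA, were not called, with log2 changes of 0.54, 0.15 and 0.07. *Scd2* and *G6pdx* were called higher in GRmKO mice as well, at 2.01 and 1.27.

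Cholesterol synthesis had 4 higher and 0 lower genes of 24, with a median of 0.43, and 19 of the 24 had values above 0. *Cyp51* and *Lss*, enzymes of the pathway, stood at 36.3 and 96.5 CPM and at 22.2 and 47.9 CPM. *Hsd17b7*, another enzyme of the pathway, stood at 5.76 and 19.6 CPM.

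Triglyceride assembly had 2 higher and 3 lower genes of 19, with a median of 0.06. *Pck1*, the phosphoenolpyruvate carboxykinase that supplies glycerol for re-esterification in adipocytes, stood at 2751 CPM with vehicle and 515 CPM with CORT (log2 change -2.42). *Gpat3* and *Mogat1*, which acylate glycerol-3-phosphate and monoacylglycerol, stood at 150.4 and 52.7 CPM and at 40.9 and 17 CPM. *Mogat2*, the second monoacylglycerol acyltransferase, moved the other way, from 4.61 to 30.9 CPM, and *Gk*, glycerol kinase, from 3.01 to 7.75 CPM. *Agpat1*, *Agpat2*, *Agpat3* and *Gpam*, which build phosphatidic acid, were not called, with log2 changes from -0.44 to 0.28.

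In lipid uptake, the main enzyme and carriers of adipocytes were not called. Of 18 uptake genes 1 was called higher and 4 lower. *Lpl*, the lipoprotein lipase of adipocytes, stood at 13359.6 and 10880.3 CPM, *Cd36*, the fatty acid transporter, at 1844 and 2211 CPM and *Fabp4* at 11458 and 10268 CPM, none of them called. *Angptl8*, an insulin-induced regulator of lipoprotein lipase, stood at 9.52 CPM with vehicle and 25.5 CPM with CORT (log2 change 1.38). *Gpihbp1*, which carries the lipase to the surface of capillaries and belongs to the endothelium, stood at 177 CPM with vehicle and 47.2 CPM with CORT (log2 change -1.89). *Apoe* stood at 2060.5 and 803 CPM, *Apoc1* at 85.3 and 29.9 CPM and *Slc27a1*, a fatty acid transport protein, at 343 and 132 CPM. Of 15 droplet proteins *Cidea* alone was called, from 8.27 to 2.16 CPM, and *Plin2*, *Plin3* and *Plin4* had log2 changes of 0.85, 0.10 and -0.71.

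In lipolysis the lipases were not called, whereas several receptors that control them were. *Pnpla2*, *Lipe* and *Mgll*, the 3 lipases that act in sequence, had log2 changes of -0.29, -0.33 and -0.18, and *Abhd5*, the activator of the first, had 0.47. *Adrb3*, the β3-adrenergic receptor that turns it on, stood at 509.5 CPM with vehicle and 88.7 CPM with CORT (log2 change -2.52), and at 474 and 111 CPM (log2 change -2.08) in GRmKO mice. *Hcar1*, the lactate receptor that turns it off, stood at 151 CPM with vehicle and 17.8 CPM with CORT (log2 change -3.04), and at 145 and 31.7 CPM (log2 change -2.18) in GRmKO mice. *Hcar2*, *Ffar2* and *Adra2a*, also coupled to inhibition, stood at 24.8 and 7.68 CPM, 21.7 and 7.66 CPM, and 2.96 and 0.603 CPM. Higher were *Npr3*, the clearance receptor of natriuretic peptides, at 792 CPM with vehicle and 1959.98 CPM with CORT (log2 change 1.31), and *Prkar2b*, a regulatory subunit of protein kinase A, at 469.5 CPM with vehicle and 1149 CPM with CORT (log2 change 1.29). Receptors of both signs were thus among the 5 lower genes of 25 in the list, whose median was -0.39.

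In the insulin pathway 2 of 26 genes were called higher and 1 lower, with a median of 0.04. *Insr*, the receptor, had a log2 change of -0.11, *Irs1* of 0.48 and *Irs2* of -0.77. *Irs3*, the adipocyte substrate present in rodents, stood at 68.8 and 145 CPM. *Grb10*, an adaptor that inhibits the receptor, stood at 24 and 67.1 CPM in GRf/f mice and at 54.8 and 54.7 CPM in GRmKO mice. *Akt2*, the main Akt kinase of insulin-responsive tissues, stood at 442 CPM with vehicle and 182 CPM with CORT (log2 change -1.27), and at 447 and 212 CPM (log2 change -1.08) in GRmKO mice.

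Thermogenic genes were low in this depot, with 13 of 17 compared below 10 CPM in both GRf/f libraries, and *Ucp1* had 1 count with vehicle and 0 with CORT. *Dio2*, which activates thyroid hormone, stood at 0.802 CPM with vehicle and 8.29 CPM with CORT (log2 change 2.76), while *Cox8b* stood at 19.5 and 4.2 CPM. *Otop1*, also called higher, and *Esrrg*, called lower, had levels below 3 CPM, and the other lower genes, *Cidea* and *Adrb3*, are given above. *Ppargc1a* and *Ppargc1b*, coactivators of mitochondrial genes, were not called, at -0.80 and -0.76. Of 20 genes that break down branched-chain amino acids 0 were called in either direction, with 17 below 0 and a median of -0.34. The first enzyme, *Bcat2*, had a log2 change of -0.42, and the dehydrogenase subunits *Bckdha*, *Bckdhb* and *Dbt* had -0.76, -0.56 and -0.08.

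Genes that glucocorticoids are known to induce acutely were found among both the higher and the lower genes after 4 weeks. Of 29 compared, 7 were called higher and 8 lower, with a median of 0.04. *Mt1* and *Mt2*, the metallothioneins, which have similar sequences, stood at 190.4 and 855 CPM and at 132 and 874 CPM. *Anxa1*, an anti-inflammatory phospholipid-binding protein, stood at 281 CPM with vehicle and 1011 CPM with CORT (log2 change 1.85). With *Cdkn1a*, *Lcn2*, *Fkbp5* and the kinase gene *Map3k6* (1.06), these made up the higher genes. *Ddit4*, an inhibitor of mTORC1, stood at 63.7 CPM with vehicle and 4.52 CPM with CORT (log2 change -3.68). *Rasd1*, a Ras-related protein induced by dexamethasone, stood at 279 CPM with vehicle and 59.4 CPM with CORT (log2 change -2.22), and at 96.1 and 90.3 CPM (log2 change -0.09) in GRmKO mice. *Per1*, a clock gene with a known glucocorticoid response, stood at 78.4 and 36.6 CPM. The remaining lower genes were *Cebpd*, given above, and *Rgs2*, *Sgk1*, *Nfkbia* and *Dusp1*, with log2 changes of -1.14, -1.55, -1.76 and -1.34. *Tsc22d3* and *Zbtb16*, commonly used as markers of receptor activity, were not called, with log2 changes of 0.53 and 0.37.

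**Figure D2:**
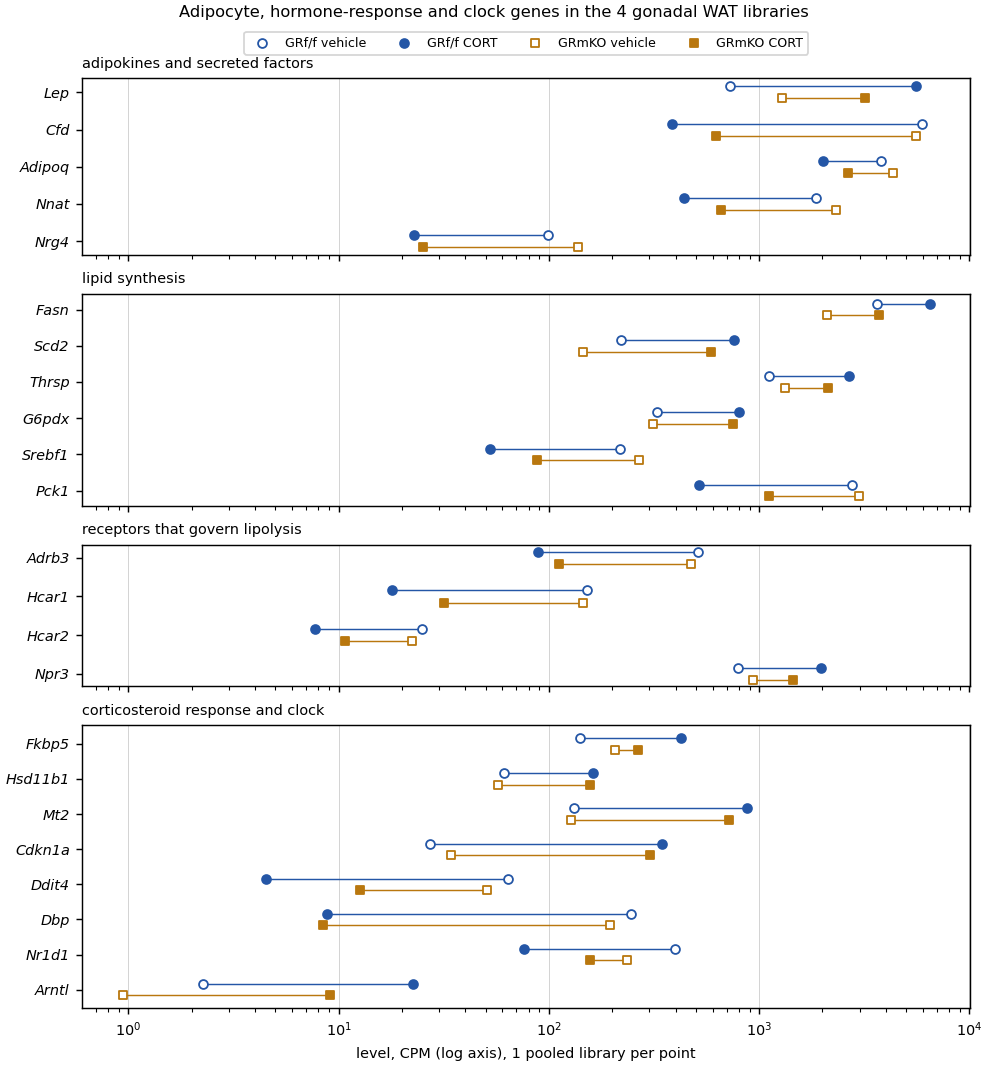
Levels of adipocyte, hormone-response and clock genes (CPM, log axis) in the 4 gonadal WAT libraries, with open symbols for vehicle, filled symbols for CORT, circles for GRf/f, squares for GRmKO and a line joining the 2 libraries of a genotype. *Lep* and *Cfd* cross over, from 722 to 5587 CPM and from 5933 to 383 CPM in GRf/f mice.

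Clock genes were called in both directions. Of 20 compared, 4 were called higher and 9 lower, with a median of -0.83 (-1.13 in GRmKO mice). *Arntl* and *Npas2*, activators of the clock, stood at 2.25 and 22.5 CPM and at 0.902 and 6.89 CPM, and *Clock* had a log2 change of 0.81. *Nr1d1* and *Nr1d2*, which repress these activators, stood at 398 and 76.5 CPM and at 107 and 15.9 CPM. *Per3* stood at 76 and 17.9 CPM, and *Ciart*, whose promoter is printed above, at 14.4 and 0.904 CPM. *Nfil3*, which opposes *Dbp* at its sites, stood at 4.41 and 30.1 CPM. The hour at which tissues were taken is not given in the sources used here, so a difference in collection time and an effect of CORT cannot be told apart for these genes.

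In the stroma, matrix genes were called higher more than lower, though most were not called. Of 44 matrix and matrix-modifying genes 15 were called higher and 2 lower, against 5.49% higher and 8.07% lower among all genes. Their median was 0.71, and 36 had values above 0. *Thbs1*, a thrombospondin that activates TGF-β and restrains angiogenesis, stood at 34.8 CPM with vehicle and 428 CPM with CORT (log2 change 3.60). In GRmKO mice it stood at 185 and 359 CPM (log2 change 0.95), from a vehicle level well above that of GRf/f mice. *Thbs2* stood at 18.7 and 91.4 CPM. *Lox*, the lysyl oxidase that cross-links collagen and elastin, stood at 45.3 CPM with vehicle and 393 CPM with CORT (log2 change 3.10). *Fbn1*, the fibrillin that also yields the hormone asprosin, stood at 185 CPM with vehicle and 775 CPM with CORT (log2 change 2.06), and at 160.2 and 658 CPM (log2 change 2.04) in GRmKO mice. *Eln* had a log2 change of 1.46, *Adamts5*, an aggrecan-cleaving protease, of 1.91 and *Timp1*, a protease inhibitor, of 2.42. *Fn1*, fibronectin, lay just short of a call at 0.97. *Mmp9*, a gelatinase, was lower at 12.1 and 2.61 CPM, and *Timp3*, another inhibitor of proteases, had -1.08.

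Collagens had 7 higher and 1 lower genes of 25, with a median of 0.61, against 5.49% higher and 8.07% lower among all genes. *Col4a1* and *Col4a2*, the chains of basement membrane collagen, stood at 1184 and 2549 CPM and at 799 and 1961 CPM. *Col5a1* and *Col6a1*, which stand with type I fibrils and around adipocytes, had log2 changes of 1.28 and 1.07. The fibrillar *Col1a1*, *Col1a2* and *Col3a1* were not called, with log2 changes of 0.76, 0.37 and 0.32. *Col6a6* was the lower one, at 22.4 and 8.05 CPM. In GRmKO mice 4 collagens were called higher and 1 lower, with a median of 0.50.

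Markers of progenitors and fibroblasts had no common direction, with 5 higher and 6 lower of 26 and a median of -0.11. *Pdgfra*, which defines the progenitors, stood at 41 and 49 CPM, *Pdgfrb* at 75.6 and 46.7 CPM and *Cd34* at 112 and 93.7 CPM, none of them called. *Cd55* and *Mfap5*, markers of the interstitial progenitors, had log2 changes of 1.35 and 1.34, and *Fmo2*, *Wnt2* and *Islr*, the remaining higher ones, had 1.31, 1.14 and 1.18. *Fap*, a protease of activated fibroblasts, stood at 8.17 and 1.32 CPM, *Bmp4* at 7.85 and 2.51 CPM, and *Sfrp2* at 18.8 and 7.78 CPM. The mesothelium, the cell layer on the surface of the depot, had 0 higher and 1 lower markers of 18, with *Upk3b* at 155 and 178 CPM and *Msln* at 39.8 and 59.7 CPM. The lower one, *Cldn15*, a claudin also found outside the mesothelium, stood at 48.9 and 13.6 CPM.

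Most markers of the blood endothelium were lower. Of 26 markers 0 were called higher and 18 lower, against 8.07% lower among all genes, 25 had values below 0 and the median was -1.44. The summed level of the list was 2815 CPM with vehicle and 1167 CPM with CORT. *Cdh5*, the cadherin of endothelial junctions, stood at 306 CPM with vehicle and 102 CPM with CORT (log2 change -1.57), with a counting interval of the ratio of -1.65 to -1.50, and *Pecam1* stood at 98.5 CPM with vehicle and 36.6 CPM with CORT (log2 change -1.42). *Kdr* and *Flt1*, the receptors of vascular endothelial growth factor, had log2 changes of -0.87 and -0.95 and were not called. *Aplnr*, the apelin receptor of sprouting endothelium, stood at 45 CPM with vehicle and 3.87 CPM with CORT (log2 change -3.38). *Robo4*, *Sox17*, *Cd300lg*, *Egfl7*, *Tie1* and *Emcn* had log2 changes of -2.53, -2.65, -2.41, -2.09, -1.77 and -1.66. In GRmKO mice 10 of the 26 were called lower and 0 higher, with a median of -0.87. The red blood cell list had medians of -1.01 and 0.35 in GRf/f and GRmKO mice, and its part in the endothelial values was not tested.

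Mural cells, the pericytes and smooth muscle around vessels, had 8 lower and 0 higher genes of 14, against 8.07% lower among all genes. The list median was -1.22 (-0.50 in GRmKO mice). *Rgs5*, the usual pericyte marker, stood at 348 CPM with vehicle and 83.3 CPM with CORT (log2 change -2.06). *Kcnj8* and *Abcc9*, the subunits of the potassium channel of pericytes, stood at 24.6 and 2.66 CPM and at 62.3 and 15.5 CPM. *Notch3* and *Myh11* had log2 changes of -1.56 and -1.40. *Acta2* and *Cspg4* were not called, with 0.38 and -0.30, so the actin used to define smooth muscle did not move with the rest. Among 17 angiogenic factors 2 were higher and 3 lower. *Vegfa* stood at 107 and 67.6 CPM and was not called. The higher genes were *Thbs1* and *Vegfd*, the latter a factor for lymphatic vessels, at 33.4 and 67.5 CPM. *Cxcl12*, *Pdgfb* and *Angpt1*, made by stromal, endothelial and mural cells, had log2 changes of -1.84, -1.68 and -1.17.

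Lymphatic markers were called in both directions, with 2 higher and 1 lower of 7. *Prox1*, the factor that defines lymphatic identity, stood at 1.55 and 0.754 CPM, *Flt4* at 16.4 and 11.4 CPM and *Pdpn* at 35.8 and 50.8 CPM, none of them called. *Lyve1* stood at 47.8 CPM with vehicle and 273 CPM with CORT (log2 change 2.50), but it also marks resident macrophages and is in that list too, and *Mmrn1* stood at 3.33 and 11.6 CPM. *Ccl21a*, a chemokine of lymphatic vessels that has near-identical copies, stood at 26.6 and 9.77 CPM.

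**Figure D3:**
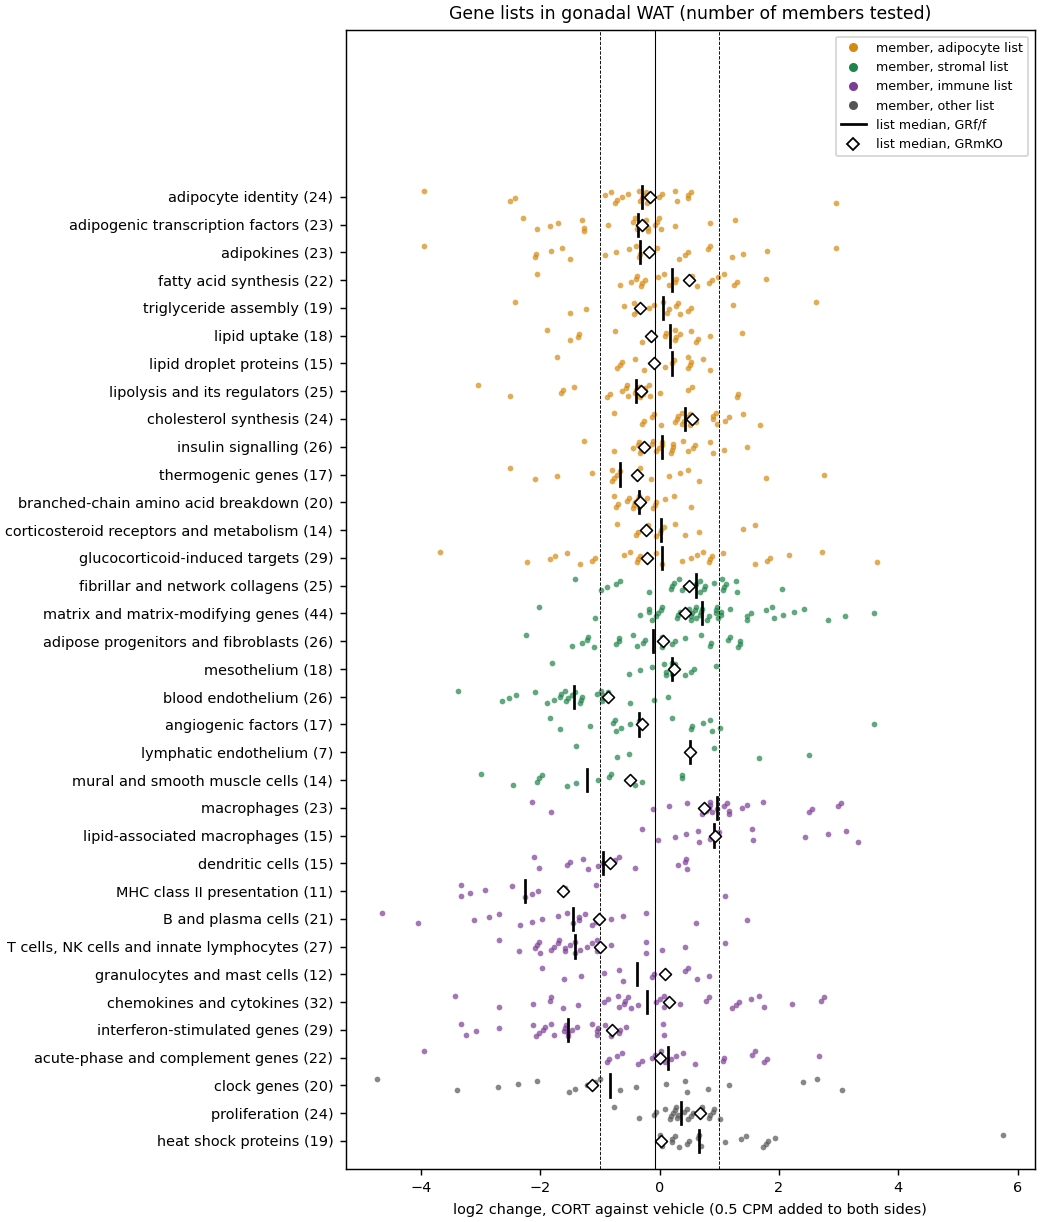
Log2 change with CORT in gonadal WAT (horizontal axis, 0.5 CPM added to both sides) of each compared member of the adipocyte, stromal, immune and other lists, as dots for GRf/f mice, with a black bar at the GRf/f median, an open diamond at the GRmKO median, a thin line at the median of all genes and dashed lines at a 2-fold change. The lowest bars are those of MHC class II presentation (-2.26), interferon-stimulated genes (-1.53), B and plasma cells (-1.45) and blood endothelium (-1.44), and the highest among immune lists is that of macrophages (0.96).

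Of 23 macrophage genes compared, 11 were called higher, 2 lower and 10 neither, against 5.49% higher and 8.07% lower among all genes, with a median of 0.96 (0.74 in GRmKO mice). The comparison left out 3 members, *Itgam*, the integrin CD11b, at 0 with vehicle and 64.7 CPM with CORT, and *Ly6c2* and *Cx3cr1*, markers of monocytes and of a macrophage subset, at 4.68 and 1.9 CPM with vehicle and 0 with CORT. With them the list had 12 higher and 4 lower genes. The row of *Itgam* carries 1 of 4 coding transcripts, with the same limit as for *Ttll5*. *Cd68*, a lysosomal protein of macrophages, stood at 50.9 CPM with vehicle and 171 CPM with CORT (log2 change 1.73), with a counting interval of the ratio of 1.64 to 1.85. *Adgre1*, which encodes F4/80, stood at 23.3 CPM with vehicle and 65.1 CPM with CORT (log2 change 1.46), and *Lyz2*, the lysozyme of myeloid cells, at 436 CPM with vehicle and 1137 CPM with CORT (log2 change 1.38). *Csf1r*, the growth factor receptor of macrophages, had a log2 change of 0.96, just short of a call. Among the 23 compared, *Marco*, *Vsig4*, *Cd5l* and *Lyve1* were among the largest increases. *Marco*, a scavenger receptor, stood at 2.51 CPM with vehicle and 24.2 CPM with CORT (log2 change 3.04). *Vsig4*, a complement receptor of resident macrophages, stood at 1.25 and 13.4 CPM, and *Cd5l*, which encodes an inhibitor of apoptosis secreted by macrophages, at 0.752 and 6.84 CPM. *Lyve1* is given above. The 2 lower genes were *Ccr2*, the chemokine receptor of recruited monocytes, at 27.6 CPM with vehicle and 5.88 CPM with CORT (log2 change -2.14), and *Retnla*, a secreted marker of alternatively activated macrophages, at 337 CPM with vehicle and 95.4 CPM with CORT (log2 change -1.82). Both were called lower in GRmKO mice too, at -1.54 and -1.34.

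Genes of the macrophages that take up lipid had 6 higher and 0 lower of 15, with a median of 0.92. *Trem2*, the lipid receptor that defines them, stood at 7.12 and 22.1 CPM, *Cd9* at 45.4 and 44.5 CPM and *Gpnmb*, a glycoprotein of lysosomes, at 24 CPM with vehicle and 214 CPM with CORT (log2 change 3.13). *Spp1*, which encodes osteopontin, stood at 1.05 and 15.1 CPM, *Mmp12*, the macrophage elastase, at 16.8 and 122 CPM, *Lgals3* at 112 and 328 CPM and *Atp6v0d2*, a subunit of the lysosomal proton pump, at 5.51 and 32 CPM. In GRmKO mice 7 of the list were called higher, with a median of 0.94.

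Class II antigen presentation moved the other way. Of 11 genes compared, 10 were called lower, with a median of -2.26, against 8.07% lower among all genes. The one called higher was *Ctss*, a lysosomal protease that macrophages also express in quantity, at 59.9 and 128 CPM. The summed level of the list was 1640.2 CPM with vehicle and 316 CPM with CORT, and 2029 and 496 CPM in GRmKO mice. *Cd74*, the invariant chain, stood at 641 CPM with vehicle and 83.6 CPM with CORT (log2 change -2.93), with a counting interval of the ratio of -3.01 to -2.86. *H2-Aa*, *H2-Ab1* and *H2-Eb1*, the chains that bind peptide, stood at 342 and 33.4 CPM, 296 and 32.1 CPM, and 224 and 21.9 CPM. *H2-DMa* and *H2-DMb1*, which load the peptide, had log2 changes of -2.14 and -2.04. In GRmKO mice 9 of the 11 were called lower, with a median of -1.63.

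Dendritic cell genes had 7 lower and 0 higher of 15, with a median of -0.95, against 8.07% lower among all genes. For 4 of the 7 the counting interval lay wholly beyond a 2-fold decrease. Of the 15, 9 were below 10 CPM in both GRf/f libraries. *Zbtb46*, a factor that marks conventional dendritic cells and also endothelium, stood at 18.1 and 5.82 CPM. *Xcr1* and *Clec9a*, of the cross-presenting subset, stood at 3.79 and 1.01 CPM and at 3.66 and 1.21 CPM. *Cd209a* stood at 6.71 and 1.17 CPM and *Flt3*, the receptor on which these cells depend, at 1.6 and 0.754 CPM, the last not called.

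Interferon-stimulated genes were called lower in 22 of 29 cases and higher in 0, with a median of -1.53, against 8.07% lower among all genes. *Iigp1*, *Igtp*, *Gbp4* and *Gbp5*, which encode GTPases that act against intracellular pathogens, stood at 42.8 and 3.79 CPM, 25.1 and 5.62 CPM, 25.6 and 3.56 CPM, and 10.1 and 0.742 CPM. *Ifit1*, *Ifit3* and *Rsad2*, antiviral effectors whose promoters are printed above, had log2 changes of -2.03, -1.39 and -2.13, and *Isg15*, a ubiquitin-like modifier, had -1.96. *Ifit2*, of the same family as *Ifit1*, stood at 10.8 and 11.3 CPM. *Irf9*, a subunit of the factor that binds the response element, stood at 19.4 and 1.6 CPM in GRf/f mice and at 7.86 and 7.99 CPM in GRmKO mice. Its row carries 1 of 4 coding transcripts, with the same limit as for *Ttll5*. In GRmKO mice 10 of the list were called lower and 0 higher, with a median of -0.80.

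Lymphocyte genes were lower but thinly counted. Of 36 genes of T cells, NK cells and innate lymphocytes, 27 were compared, and 8 of those left out were above 0 with vehicle and at 0 with CORT. Among the 27, 20 were called lower and 1 higher, against 8.07% lower and 5.49% higher among all genes. For 16 of the 20 the counting interval lay wholly beyond a 2-fold decrease. *Cd3e*, a chain of the T cell receptor complex, stood at 1.45 CPM with vehicle and had 1 count with CORT, with a counting interval of the log2 ratio of -10.21 to -2.26. *Cd247*, another chain of that complex, stood at 8.43 CPM with vehicle and 1.25 CPM with CORT (log2 change -2.35). *Ccl5*, a chemokine of activated T and NK cells, stood at 6.66 and 0.601 CPM. The one higher gene was *Il7r*, the interleukin-7 receptor, at 3.49 and 8.02 CPM. With only genes of at least 10 CPM on average, 2 members remained and neither was called.

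The B and plasma cell list had 16 lower and 1 higher genes of 21 compared, against 8.07% lower and 5.49% higher among all genes. The list median was -1.45, and 6 more members were above 0 with vehicle and at 0 with CORT. *Cd79a* and *Cd79b*, which signal for the B cell receptor, stood at 4.81 and 0.552 CPM and at 3.04 and 0.703 CPM. *Igkc*, the constant region of the κ light chain, stood at 78.3 CPM with vehicle and 11.6 CPM with CORT (log2 change -2.70), and *Jchain*, which joins secreted antibodies, at 12.7 and 2.51 CPM. *Ighg2b* stood at 17.1 and 0.201 CPM, and at 0.70 and 6.09 CPM in GRmKO mice. The exception was *Ighm*, the constant region of IgM, at 315 CPM with vehicle and 873 CPM with CORT (log2 change 1.47), and at 422 and 672 CPM (log2 change 0.67) in GRmKO mice, and the summed level of the list, of which it was the largest part with CORT, stood at 505 and 917 CPM. Antibody constant regions resemble each other and can share reads, and with *Ighm* and 2 others as the members of at least 10 CPM on average, the list median was 0.61.

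Among 12 genes of granulocytes and mast cells 3 were called lower and 0 higher. *S100a8* and *S100a9*, the abundant proteins of neutrophils, stood at 0.801 and 1.8 CPM and at 0.15 and 0.401 CPM. The lower genes were the mast cell proteases *Mcpt4*, at 8.72 and 1.86 CPM, and *Tpsb2*, at 10.6 and 3.97 CPM, and the neutrophil elastase gene *Elane*, at 2.4 and 0.452 CPM. *Kit*, the growth factor receptor of mast cells, was not compared because it was at 0 with CORT, from 11.9 CPM with vehicle, and its row carries 1 of 2 coding transcripts.

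Chemokines and cytokines were called in both directions, with 9 higher and 7 lower of 32, against 5.49% higher and 8.07% lower among all genes. *Ccl2*, the attractant of monocytes, stood at 4.66 CPM with vehicle and 33.2 CPM with CORT (log2 change 2.71), and at 3.59 and 36.2 CPM (log2 change 3.16) in GRmKO mice. *Ccl3* and *Ccl4*, made by macrophages, stood at 0.301 and 4.92 CPM and at 0.351 and 1.55 CPM. *Il1rn*, the antagonist of the interleukin-1 receptor, stood at 1.55 and 9.0 CPM. *Cxcl9*, an attractant of T cells induced by interferon-γ, stood at 66.3 CPM with vehicle and 5.68 CPM with CORT (log2 change -3.43). *Ccl11*, the attractant of eosinophils, stood at 93.5 and 21.1 CPM and *Cxcl12*, made by stromal cells, at 53.3 and 14.5 CPM. Higher monocyte chemokines thus stood beside lower *Ccr2*.

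Acute-phase proteins had 7 higher genes of 22 and 1 lower, *Cfd*, against 5.49% higher and 8.07% lower among all genes. *Hp*, haptoglobin, stood at 2209 CPM with vehicle and 6458 CPM with CORT (log2 change 1.55), and at 1885 and 7081 CPM (log2 change 1.91) in GRmKO mice. *Serpina3n*, a protease inhibitor with close paralogs, stood at 656 CPM with vehicle and 1989 CPM with CORT (log2 change 1.60). *Orm1*, an α1-acid glycoprotein, stood at 237 and 499 CPM, and *Ptx3*, a pentraxin, at 1.15 and 9.99 CPM. *Saa1* and *Saa2* were at or below 3 counts in both GRf/f libraries, and *Saa3* stood at 3.95 and 8.81 CPM. Beside them, 4 of the 15 compared liver genes were called higher, *Apoc3*, *Mup3*, *Mup20* and *Cyp3a11*, at 4.32, 2.08, 4.11 and 2.06 CPM with CORT, while *Alb*, the leading liver marker, stood at 44.7 and 46.8 CPM. The 4 higher calls became 1 with 1 CPM added and 5 with 0.1 CPM added. The part of liver RNA in the acute-phase levels was not tested.

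**Figure D4:**
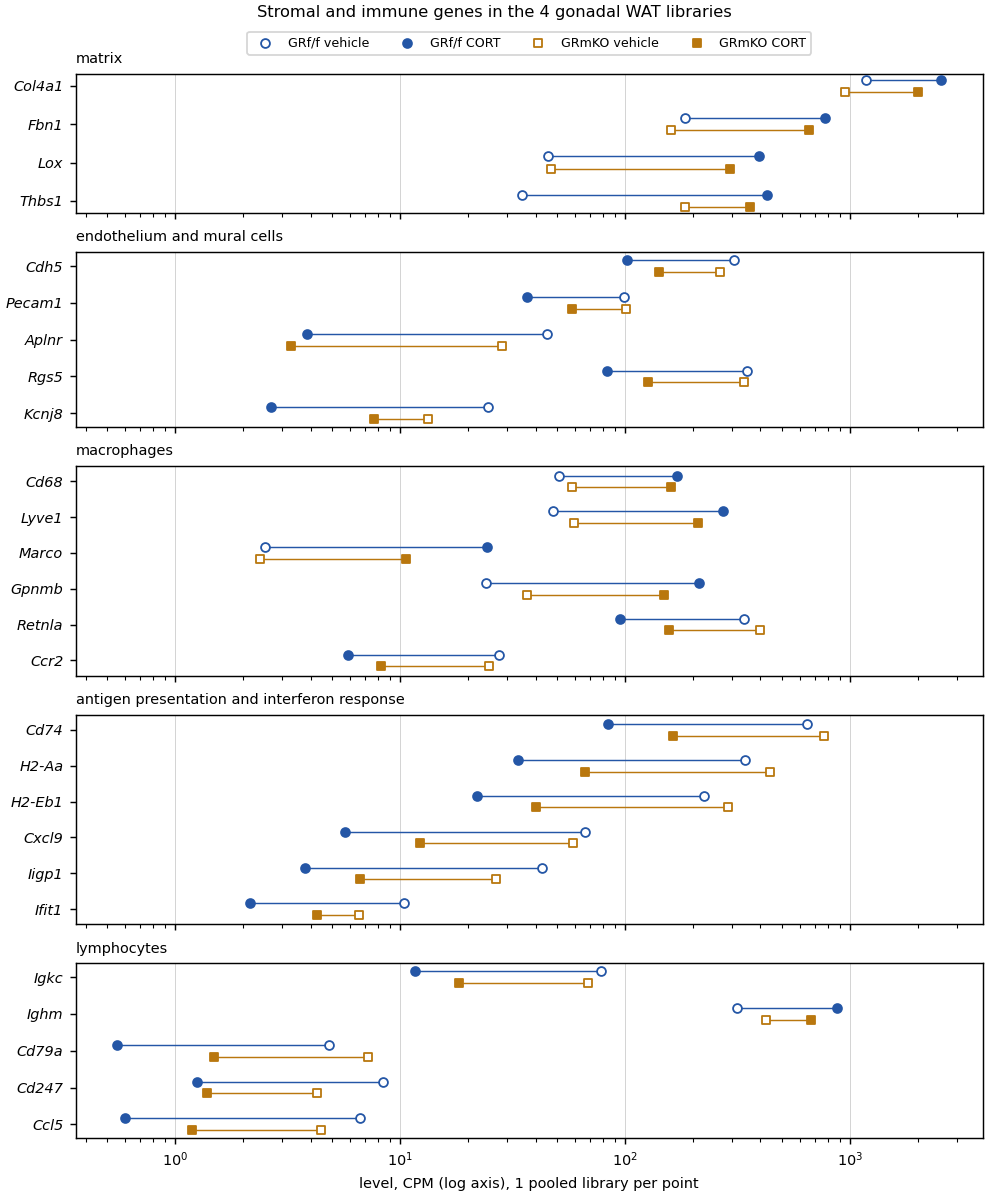
Levels of stromal and immune genes (CPM, log axis) in the 4 gonadal WAT libraries, with open symbols for vehicle, filled symbols for CORT, circles for GRf/f, squares for GRmKO and a line joining the 2 libraries of a genotype. The matrix genes and 4 of the 6 macrophage genes lie higher with CORT, and the endothelial, mural, class II and interferon genes and the lymphocyte genes other than *Ighm* lie lower in both genotypes.

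Of 19 heat shock genes 8 were called higher in GRf/f mice, 0 lower and 11 neither, against 5.49% higher and 8.07% lower among all genes, with a median of 0.67 and 18 values above 0. *Hspa1a* and *Hspa1b*, the inducible and nearly identical 70-kDa chaperones, had log2 changes of 1.82 and 1.78. *Hspa8*, the constitutive chaperone, stood at 570.3 CPM with vehicle and 1551 CPM with CORT (log2 change 1.44), and at 1143 and 1156 CPM (log2 change 0.02) in GRmKO mice. *Hspa5*, of the endoplasmic reticulum, stood at 278 and 596 CPM. *Hspb1* and *Cryab*, small heat shock proteins like *Hspb7*, stood at 133 and 505 CPM and at 108 and 360.4 CPM. In GRmKO mice 3 of the list were called higher, with a median of 0.02, and the vehicle sum of the list was 4547 CPM there against 3158 CPM in GRf/f mice. Proliferation genes had 1 higher and 0 lower of 24, with *Mki67* at 11.7 and 21.2 CPM, the called gene *Bub1*, a kinase of the spindle checkpoint, at 0.401 and 1.31 CPM, and 20 values above 0.

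**Figure D5:**
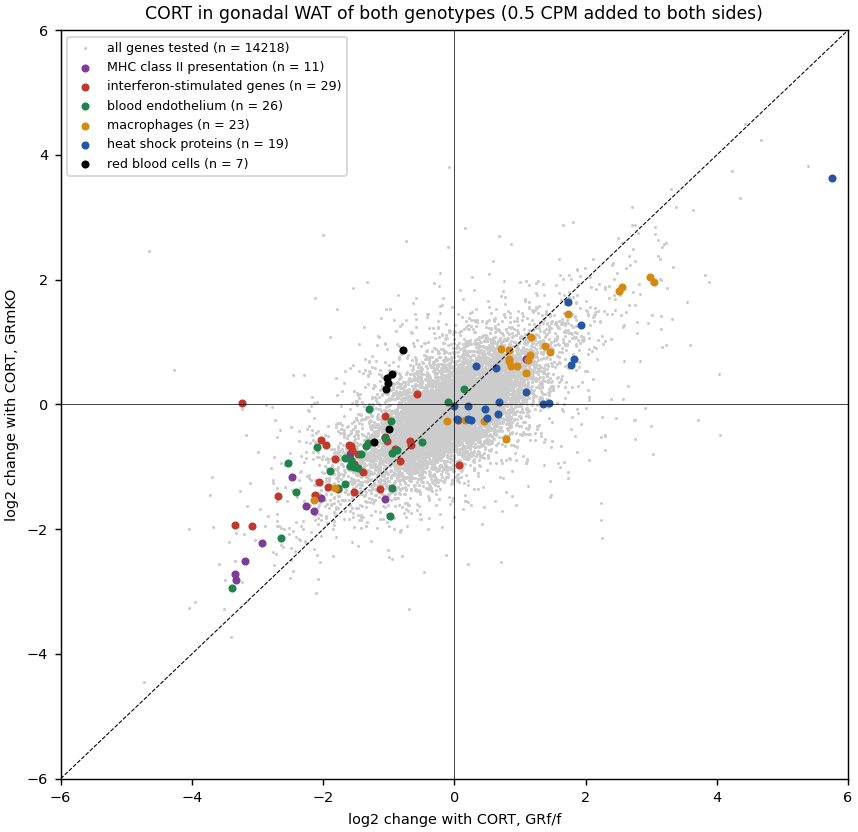
Log2 change with CORT in GRf/f (horizontal axis) and GRmKO (vertical axis) gonadal WAT for the 14218 compared genes in grey, with 6 lists in colour and a dashed line where both changes are equal. Most class II and endothelial genes lie low in both genotypes and macrophage genes mostly high, while heat shock genes spread along the GRf/f axis and red blood cell genes lie below 0 in GRf/f mice, with 5 of the 7 above 0 in GRmKO mice.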

How the data were processed

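Gonadal WAT libraries of GRf/f and GRmKO mice given vehicle or CORT were used, 1 library per group from RNA pooled from 3 mice, and the gastrocnemius and liver libraries of the study were not used here. Groups were taken from the sample labels. The authors quantified reads against GENCODE protein-coding transcripts of mouse (mm10) with Salmon 1.2.1 and converted them with tximport under R 3.5.0, and the deposited values are expected counts scaled by transcript length and library size. Each entry carries 1 transcript identifier, and whether it sums all transcripts of a gene is not settled by the sources used here, so a change of transcript can resemble a change of gene. Where a name had several entries, the largest was kept. Gene positions were taken from the GENCODE annotation of GRCm38 and promoters from RefSeq (GRCm38.p6).

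Counts were not rounded for CPM (value divided by the library total) but were rounded for intervals. CPM intervals were 95% Wilson intervals and ratio intervals 95% Clopper-Pearson intervals, and both cover counting error only. Depth was 19752511 to 20198110 counts per library, so a floor of 3 counts was 0.149 to 0.152 CPM. Genes above 0 in all 4 gonadal WAT libraries were compared, and a gene was called at a 2-fold change with 0.5 CPM added. The authors' own test of differential expression was not repeated, since it simulates replicates that these pooled libraries do not have.

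The 41 gene lists, their 823 genes and the comparison were chosen with earlier results of these data known, and lists can share members. Named genes were up to 8 called members of a list with the largest change, the first 4 defining members of each list, the receptor genes and *Hsd11b1*, and the 15 largest changes in each direction among genes of at least 10 CPM. *Agt*, *Metrnl*, *Map3k6*, *Rgs2*, *Sgk1*, *Nfkbia*, *Dusp1*, *Timp3*, *Wnt2*, *Islr*, *Ctss*, *Il7r*, *Ighm*, *Kit*, *Ly6c2*, *Cx3cr1* and *Itgam* fell outside this rule and were named after their values were seen. Alternatives were TMM factors (edgeR 4.0.16) and median-of-ratios size factors (DESeq2 1.42.0) as scaling only, a total without the 50 most abundant genes, 0.1 and 1 CPM added, no filter, a mean of at least 10 CPM, thresholds of 1.5-fold and 4-fold, and a requirement that the counting interval lie beyond 2-fold. Calling and intervals were tested on simulated counts. Computation used Python 3.11.15 and R 4.3.3.
Some genes of the lists are not reported here by name.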

Additional observations from a re-analysis of the deposited data

Results flagged for a closer look

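Among the list members and the genes named by rule, 2 were called in opposite directions in the 2 genotypes. *Egr1* and *Fos*, which are outside these, are given under the other observations. The differences were not tested, since each value rests on 1 library. *Ccl19*, a chemokine that guides T cells and dendritic cells, had a log2 change of -1.38 in GRf/f mice (2.2 and 0.538 CPM) and of 1.24 in GRmKO mice (0.0933 and 0.903 CPM). *Ighg2b*, an antibody constant region, had log2 changes of -4.65 and 2.46, and its vehicle levels differed between the genotypes at 17.1 and 0.70 CPM.

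The comparison left out 10 list members with at least 3 CPM in a GRf/f library because one of the 4 libraries held 0, of which 2 had at least 10 CPM with CORT and at least 2-fold the vehicle level. *Itgam*, the integrin CD11b of myeloid cells, was at 0 with vehicle and at 64.7 CPM with CORT in GRf/f mice, beside 22.5 and 42.7 CPM in GRmKO mice, and its row carries 1 of 4 coding transcripts. *Tnc*, the matrix protein tenascin C, was at 3.49 and 12.5 CPM in GRf/f mice, beside 0 and 9.99 CPM in GRmKO mice. The other 8 had lower values with CORT in GRf/f mice. *Gbp3* stood at 19.7 and 3.21 CPM, *Kit* at 11.9 and 0 CPM, *Plin5* at 7.57 and 4.89 CPM, *Ifi47* at 5.59 and 3.01 CPM and *Actg2* at 3.4 and 0.553 CPM. *Ighg3*, *Ly6c2* and *Ighg1* went from 5.44, 4.68 and 4.35 CPM to 0.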

How the results depend on the processing

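Among all genes the counts of higher and lower calls, 781 and 1147, became 899 and 1016 with TMM factors, 900 and 1014 with median-of-ratios factors and 745 and 1446 without the 50 most abundant genes. They became 1901 and 2735 at 1.5-fold, 143 and 182 at 4-fold, and 447 and 487 among the 8670 genes with a mean of at least 10 CPM. With the counting interval beyond 2-fold they were 533 and 733. Adding 0.1 or 1 CPM gave 994 and 1609 or 676 and 908, and no filter gave 965 and 1473 of 17224 genes. TMM scaling moved the median of all genes by 0.07. Over 330 named genes under 5 scalings and added values, no called gene changed sign, 7 that were not called did so (*Alb*, *Cd9*, *Cebpb*, *Dbt*, *Hsd11b2*, *Ifit2* and *Pparg*, all with log2 changes near 0), and of 1650 recomputed values 38 lost a call and 16 gained one, among the latter *Csf1r* and *Fn1* at log2 changes of 1.03 and 1.05 with TMM factors. Among list medians past 2-fold under either setting, the sign changed with at least 10 CPM on average for B and plasma cells (0.61, 3 members), for T cells, NK cells and innate lymphocytes (0.24, 2 members) and for chemokines and cytokines (1.27, 10 members), and with no filter for mammary, pancreatic and testis genes (-0.24), each through the change in which genes were compared. Of the smaller medians, those of angiogenic factors (0.20), skeletal muscle (0.47), liver (-0.07), progenitors and fibroblasts (0.12), triglyceride assembly (-0.10) and lymphatic endothelium (-0.01) changed sign with at least 10 CPM on average. Those of triglyceride assembly (-0.01), insulin signalling (-0.03), corticosteroid receptors and metabolism (-0.04) and glucocorticoid-induced targets (-0.03) did so without the 50 most abundant genes. No paired analysis was possible because each group has 1 library, which also leaves no replicate to omit. With vehicle counts of 3 or fewer, as for *Pkp1*, *Colq* and *Aadacl2fm1*, depth limits the size of the ratio.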

Other observations

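Further families were drawn by symbol after the values were seen, and are given as descriptions. Over all genes, 5.49% were called higher and 8.07% lower in GRf/f mice. The nuclear genes of the respiratory chain and ATP synthase, which carry out mitochondrial oxidation, had 0 higher and 4 lower calls of 97 in GRf/f mice, but 91 values below 0 and a median log2 change of -0.47 (-0.11 in GRmKO mice), beside -0.07 over all genes. Cytosolic ribosomal proteins had a median of -0.40 over 90 genes and 1 call, and proteasome subunits -0.08 over 51. The 13 mitochondrially encoded genes had a median of -0.18 in GRf/f and 0.19 in GRmKO mice, with 0 calls in either.

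All 12 compared genes of class I histocompatibility, which present peptides to cytotoxic T cells, had values below 0, 7 of them called, and their sum was 2426 CPM with vehicle and 1224 CPM with CORT. All 10 Gbp GTPases were called lower, with a median of -1.83, some of them also in the interferon list. Of 8 Gimap GTPases, known from lymphocytes, 6 were called lower, with a median of -1.59 (-1.10 in GRmKO mice). Toll-like receptors, the sensors of microbial products, had 3 higher and 0 lower of 9, with a median of 0.92 in GRf/f and 0.00 in GRmKO mice. Wnt ligands had 4 higher and 0 lower of 10, and Sox factors 0 higher and 6 lower of 13. The shares over all genes were 5.49% higher and 8.07% lower. Ms4a membrane proteins, found on myeloid and B cells, had 6 higher and 2 lower of 12, semaphorins 2 and 5 of 15, and keratins 1 and 0 of 10.

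Of the 22 genes called in opposite directions by genotype, *Egr1* and *Fos*, immediate early genes, were also singled out after their values were seen. *Egr1* stood at 100.5 and 26.7 CPM in GRf/f mice and at 51.2 and 109 CPM in GRmKO mice, and *Fos* at 63.3 and 24.8 CPM and at 31.6 and 124 CPM. The difference was not tested. Among genes of at least 10 CPM in one GRf/f library, 22 were at 0 with CORT and 18 at 0 with vehicle, and since each entry carries 1 transcript identifier, such values were not read as presence or absence of a gene.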
